A study of Mus musculus with 10 samples.

Results

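Messenger RNA of 32 genes of homologous recombination, the Fanconi anaemia pathway and the DNA damage checkpoint was measured in E12.5 mouse embryos and compared between *Dot1l*-cKO and littermate controls. The 32 genes were given by name, and each was found by its Ensembl identifier, giving 32 of the 54146 rows of the deposited table of read counts. The questions were whether they differ by genotype within a litter, and whether such a difference exceeds that of genes tied to proliferation. Each of the 10 libraries was made from polyA RNA of the lumbar spinal cord of 1 embryo, with the dorsal root ganglia left on by the labels. *Dot1l*-cKO embryos carried 1 Wnt1-cre2 transgene and 2 floxed alleles of *Dot1l*, which encodes the methyltransferase of lysine 79 of histone H3. Controls carried no transgene, with 2 floxed *Dot1l* alleles in litter 1 (3 controls, 3 *Dot1l*-cKO) and 1 floxed allele in litter 2 (2 controls, 2 *Dot1l*-cKO). The Wnt1-cre2 driver is active mainly in the dorsal neural tube and the neural crest, and by its strain name the transgene sits in *E2f1*. No embryo carried the transgene without loss of *Dot1l* or lost *Dot1l* without the transgene, so the effects of both cannot be told apart.

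Homologous recombination repairs a broken chromosome by copying from the sister chromatid. The broken ends are trimmed to single strands, BRCA1, BRCA2 and their partners prepare these for pairing with the sister, and the joined molecules are later cut or dissolved. The Fanconi anaemia proteins take apart crosslinks between the strands: a core complex attaches ubiquitin to FANCD2 and FANCI, which brings nucleases and recombination proteins to the lesion. Both work in S and G2 phase, when a sister chromatid is at hand, and many of their genes are transcribed by E2F factors in dividing cells, which in the embryonic spinal cord are the progenitors of the ventricular zone.

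The letters that E2F factors are known to bind were searched in the window from 250 bases before to 50 bases after each start site (RefSeq, GRCm38.p6), which was given for 24 of the 32 genes. The letters TTCCCGC, the letters TTGGCGC, the letters TTCGCGC or the letters TTGCCGC stood on either strand in 12 of these 24 genes (50%), against 10.9% of 27025 genes with a window, 68.0% of 25 S phase genes and 21.3% of 47 G2/M genes, and 40.4% of 52 other genes of the same pathways. The cell cycle homology letters TTTGAA or TTCGAA, known from G2/M genes, stood in 16.7% of the 24 genes, 21.7% of all genes and 76.6% of the G2/M genes. The letters TTCGAA and TTCGCGC begin alike, but no string of one set holds one of the other. The 250 bases before the start follow for *Fancm*, with the lowest adjusted p between genotypes, for *Brip1*, with the largest difference, for *Brca2*, and for *Fance* and *Fancf*, which were called higher relative to proliferation genes. Each is written 5′ to 3′ on the strand of its gene, and capitals mark the first set of letters.
Fancm, chr12:65075353-65075602, plus strand: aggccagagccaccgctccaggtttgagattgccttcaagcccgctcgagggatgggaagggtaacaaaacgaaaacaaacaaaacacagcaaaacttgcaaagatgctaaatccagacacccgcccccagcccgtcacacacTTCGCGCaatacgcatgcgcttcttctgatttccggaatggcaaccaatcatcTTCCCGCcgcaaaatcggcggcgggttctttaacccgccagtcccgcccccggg
Brip1, chr11:86201194-86201443, minus strand: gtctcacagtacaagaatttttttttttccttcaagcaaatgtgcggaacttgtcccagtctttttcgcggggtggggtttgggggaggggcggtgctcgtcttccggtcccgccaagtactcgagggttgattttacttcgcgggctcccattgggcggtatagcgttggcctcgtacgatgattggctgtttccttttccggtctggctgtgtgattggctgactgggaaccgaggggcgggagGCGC
Brca2, chr5:150522371-150522620, plus strand: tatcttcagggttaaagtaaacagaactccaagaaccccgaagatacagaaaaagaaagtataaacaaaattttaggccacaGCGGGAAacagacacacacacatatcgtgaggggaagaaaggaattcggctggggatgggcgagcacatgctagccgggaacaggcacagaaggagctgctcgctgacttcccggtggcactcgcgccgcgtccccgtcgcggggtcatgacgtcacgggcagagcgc
Fance, chr17:28313280-28313529, plus strand: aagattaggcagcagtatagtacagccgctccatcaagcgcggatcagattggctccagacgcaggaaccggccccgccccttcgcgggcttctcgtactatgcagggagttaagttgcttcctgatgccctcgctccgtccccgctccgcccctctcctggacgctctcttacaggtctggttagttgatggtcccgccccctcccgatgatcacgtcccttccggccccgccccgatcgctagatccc
Fancf, chr7:51862268-51862517, minus strand: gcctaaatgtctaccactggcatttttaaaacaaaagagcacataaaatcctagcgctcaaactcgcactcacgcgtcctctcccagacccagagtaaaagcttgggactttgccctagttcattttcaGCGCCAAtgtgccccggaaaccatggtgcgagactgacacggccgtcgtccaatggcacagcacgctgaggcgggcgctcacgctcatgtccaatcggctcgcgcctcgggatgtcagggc
Counted from the first transcribed base as 1, the matches began at -107 and -54 in *Fancm*, -168 in *Brca2* and -121 in *Fancf*. In *Brip1* the match began at -4 and ran over the start, so that 4 of its letters are shown. *Fance* held none in the window, which says only that these letters are absent there. A match is a description of letters and not of binding.

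Total counts lay between 40949585 and 68928443 per embryo, and a level is a count divided by the TMM-scaled library size and times 1000000 (CPM). All listed markers of neural progenitors, neurons, dorsal root ganglion neurons, crest glia, blood, mesenchyme, endothelium and microglia averaged at least 1 CPM. That level alone does not show that the tissue held more than spinal cord. The summed level of 14 ganglion markers was 1334 to 1535 CPM in controls and 1110 to 1347 in *Dot1l*-cKO embryos of litter 1, and 779 to 827 and 850 to 947 in litter 2, so its genotype difference had opposite signs in the litters. Endothelial markers did not overlap between groups in litter 1, where their summed level was 331 to 393 CPM in controls and 271 to 301 in *Dot1l*-cKO embryos, and overlapped in litter 2 (228 to 282 and 241 to 299.5 CPM). Of these 7 markers 6 had a negative log2 fold change over both litters, with a median of -0.24. For these edgeR called 0, with 5 lower at an unadjusted p below 0.05, beside 10.9% of all tested genes. Crest glia markers summed to 1152 to 1171 and 1071 to 1120 CPM in litter 1 and to 1003 to 1016 and 992 to 1008 CPM in litter 2. By gene, however, 3 of the 8 were positive in litter 1 and 6 of the 8 in litter 2. In litter 2 edgeR called 4 of these markers higher, beside 747 of 18786 genes. Erythroid markers summed to 933 to 1029 CPM in controls and 876 to 969 in *Dot1l*-cKO embryos of litter 1, and were higher in those of litter 2 (1346 to 1460 and 1652 to 2064 CPM). Mesenchyme markers had a median of -0.31 in litter 1 and 0.09 in litter 2, and all 7 microglia markers were positive over both litters, with a median of 0.19. *Dot1l* itself was at 87.6 to 107 CPM in controls and 97.8 to 112 in *Dot1l*-cKO embryos, counted over the whole gene, which does not check the genotype. *Xist* was at 499 to 889.9 CPM in 8 embryos and at 6.00 and 6.79 CPM in both *Dot1l*-cKO embryos of litter 2, so that sex and genotype are not balanced in that litter. In bulk RNA, fewer dividing cells and less RNA per dividing cell cannot be told apart. The part of these differences in the results was not tested.

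Among the 32 genes the mean control level ran from 2.52 CPM (*Rad51b*) to 67.4 CPM (*Atm*). Per kilobase of annotated exon it was highest for *Nbn* (9.24 CPM per kb) and *Slx4* (8.398 CPM per kb) and lowest for *Rad51b* (0.67) and *Palb2* (0.99). The lowest count of any of them in any embryo was 78, and all 32 passed the expression filter. In *Dot1l*-cKO embryos 27 of the 32 had a negative log2 fold change and 5 a positive one in the quasi-likelihood fit of edgeR, in which the litter was a covariate. Their median log2 fold change was -0.22, against -0.01 for all 18901 genes tested, of which 52.1% were negative. By gene the changes ran from -23.6% (*Brip1*) to 12.95% (*Fancf*), and the standard errors from 0.05 to 0.15 on the log2 scale. At an unadjusted p below 0.05, 20 of the 32 were lower and 0 were higher, beside 10.9% and 11.3% of all tested genes. After Benjamini-Hochberg adjustment over all tested genes 1 of the 32 was lower and 0 were higher, while 1.2% of all genes were called lower and 1.99% higher. DESeq2 called 9 of the 32 lower, against 3.53% of the 18161 genes to which it gave an adjusted p: *Atm*, *Blm*, *Brca1*, *Brip1*, *Chek1*, *Fancm*, *Palb2*, *Rad54b* and *Xrcc3*.

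**Figure D1:**
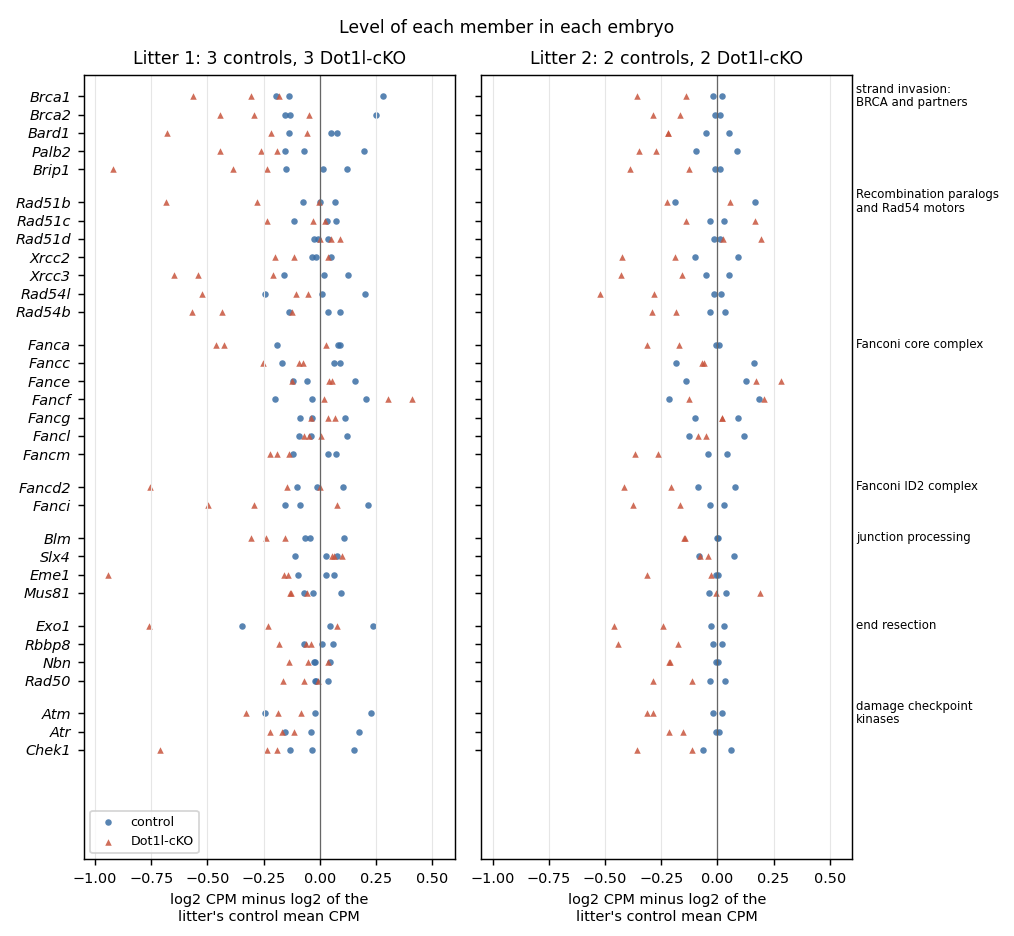
Level of each gene in each embryo as log2 CPM minus log2 of the control mean of its litter, by role, with controls as circles and *Dot1l*-cKO embryos as triangles. In litter 2 both *Dot1l*-cKO embryos lie left of both controls for 22 genes, and in litter 1 all 3 lie left of the 3 controls for 7. Of all tested genes 28.0% had this order in litter 2 and 9.51% in litter 1.

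*Fancm*, the DNA translocase that anchors the Fanconi core complex to stalled forks, was the gene that fell by the main test. In litter 1 the 3 controls were at 34.9, 31.3 and 35.8 CPM and the *Dot1l*-cKO embryos at 29.1, 30.9 and 29.8 CPM. In litter 2 the controls were at 42.5 and 45.1 CPM and the *Dot1l*-cKO embryos at 36.5 and 33.98 CPM. The groups did not overlap in either litter, although the gap in litter 1 was less than 1 CPM. The log2 fold change was -0.24 (standard error 0.06, adjusted p = 0.0397, edgeR), a difference of -15.1%. Leaving out single embryos kept the size between -0.28 and -0.21, but the adjusted p rose above 0.05 in 7 of 10 cases, to 0.0938 without the first *Dot1l*-cKO embryo of litter 1 and to 0.124 without the second of litter 2. With *Xist* as a covariate, which differed between the groups in litter 2, *Fancm* was at -0.17 with an adjusted p of 0.307, and without the litter in the model it was at -0.24 with an adjusted p of 0.483.

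The other 6 genes of the Fanconi core complex, which together form the ubiquitin ligase, split in their values. *Fanca*, a scaffold subunit, was at 11.7, 14.3 and 14.2 CPM in controls and 9.74, 13.7 and 9.96 CPM in *Dot1l*-cKO embryos of litter 1, and at 21.1 and 21.2 CPM in controls against 18.8 and 17.00 CPM in *Dot1l*-cKO embryos of litter 2, with the groups overlapping in litter 1. Its log2 fold change was -0.26 (standard error 0.10, adjusted p = 0.137). *Fancl*, the catalytic subunit, and *Fancc* were at -0.05 and -0.11. *Fance*, which links the core to FANCD2, *Fancf* and *Fancg*, both scaffold subunits, were at 0.09, 0.18 and 0.02, and none of these 5 had an adjusted p under 0.4. In litter 2 *Fance* was at 15.1 and 18.1 CPM in controls and 18.7 and 20.2 in *Dot1l*-cKO embryos, the latter above both controls. In litter 1 the same gene was at 16.7, 20.3 and 17.4 CPM in controls and 18.9, 18.7 and 16.7 in *Dot1l*-cKO embryos, which overlap. The median of the 7 core genes was -0.05, close to that of all genes. *Fancf* shares 15.0% of its exon bases with *Gas2* on the other strand, *Fancl* 13.7% with *Vrk2* and *Fanca* 10.5% with *Zfp276*. The library kit does not mark the strand, so reads in these overlaps cannot be told apart.

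*Fancd2* and *Fanci*, the pair that receives the ubiquitin, had log2 fold changes of -0.28 (standard error 0.12, adjusted p = 0.174) and -0.24 (0.11, adjusted p = 0.204). *Fancd2* was at 8.96, 9.55 and 10.3 CPM in controls and 5.69, 9.63 and 8.68 CPM in *Dot1l*-cKO embryos of litter 1, and at 19.2 and 21.5 CPM in controls against 17.6 and 15.3 CPM in *Dot1l*-cKO embryos of litter 2. The first *Dot1l*-cKO embryo of litter 1 was far below the rest while the second was within the controls, and without that first embryo the log2 fold change over both litters was -0.18. *Fanci* was at 8.66, 8.26 and 10.7 CPM in controls against 6.51, 9.71 and 7.51 CPM in *Dot1l*-cKO embryos of litter 1 and at 18.8 and 18.1 CPM in controls against 16.5 and 14.2 CPM in *Dot1l*-cKO embryos of litter 2, with the same embryo lowest. Of its exon bases, 16.0% overlap *Polg*.

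The 5 genes of strand invasion, *Brca1*, *Brca2* and their partners, were negative in all 5 cases, with a median log2 fold change of -0.30. *Brca1*, which with *Bard1* forms a ubiquitin ligase that promotes resection, was at 18.8, 18.1 and 25.1 CPM in controls and 13.98, 18.2 and 16.7 CPM in *Dot1l*-cKO embryos of litter 1. In litter 2 it was at 41.2 and 42.3 CPM in controls and 37.9 and 32.5 CPM in *Dot1l*-cKO embryos. The groups overlapped in litter 1, where 1 control was high, and did not in litter 2, and the log2 fold change was -0.30 (standard error 0.10, adjusted p = 0.0888, edgeR). *Bard1* was at -0.26 (standard error 0.10). *Brca2*, which acts in strand invasion, was at 21.8, 22.1 and 28.9 CPM in controls against 17.8, 23.5 and 19.8 CPM in *Dot1l*-cKO embryos of litter 1 and at 35.8 and 35.3 CPM in controls against 31.7 and 29.2 CPM in *Dot1l*-cKO embryos of litter 2, with a log2 fold change of -0.24 (standard error 0.09, adjusted p = 0.1303). *Palb2*, which joins BRCA1 to BRCA2, did not overlap between the groups in either litter. It was at 6.34, 7.64 and 5.99 CPM in controls and 4.89, 5.84 and 5.55 CPM in *Dot1l*-cKO embryos of litter 1, at 7.75 and 8.799 CPM in controls against 6.84 and 6.504 CPM in *Dot1l*-cKO embryos of litter 2, and had a log2 fold change of -0.30 (standard error 0.09, adjusted p = 0.08804).

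*Brip1*, the helicase that binds BRCA1 and is also a Fanconi gene, had the largest difference of the 32 in value, with *Xrcc3* next. In litter 1 it was at 7.27, 6.47 and 7.82 CPM in controls and 3.796, 5.497 and 6.11 CPM in *Dot1l*-cKO embryos, and in litter 2 at 12.9 and 13.1 CPM in controls and 11.9 and 9.93 CPM in *Dot1l*-cKO embryos. The groups did not overlap in either litter. Its log2 fold change was -0.39 (standard error 0.12, adjusted p = 0.0852, edgeR). By litter the value was -0.48 (litter 1) and -0.24 (litter 2). Without the first *Dot1l*-cKO embryo of litter 1 it was -0.28.

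Of the 7 genes of the recombination paralogs, which act in strand invasion, and of the RAD54 motors, which drive strand exchange, 6 were negative with a median of -0.20. *Xrcc3* was at 6.66, 8.12 and 7.54 CPM in controls and 4.75, 6.45 and 5.11 CPM in *Dot1l*-cKO embryos of litter 1, and at 8.77 and 8.17 CPM in controls against 7.602 and 6.29 CPM in *Dot1l*-cKO embryos of litter 2. It did not overlap in either litter and had a log2 fold change of -0.39 (standard error 0.11, adjusted p = 0.0593). *Rad54l* was at 26.5 and 27.1 CPM in controls and 22.05 and 18.7 in *Dot1l*-cKO embryos of litter 2, and overlapped in litter 1. Its log2 fold change was -0.29 (standard error 0.10, adjusted p = 0.129), and in litter 2 alone it was -0.39 (adjusted p = 0.0453). *Rad54b* had -0.31 (standard error 0.10, adjusted p = 0.0944), but 35.8% of its exon bases are shared with *Fsbp* on the same strand, and 15.4% of those of *Rad54l* with *Lrrc41*. *Xrcc2* was at -0.17, or -0.08 with *Xist* as a covariate, and *Rad51b*, counted on few reads, at -0.20. *Rad51c* and *Rad51d* were at -0.03 and 0.07 with standard errors of 0.09 and 0.06. *Rad51d* was at 15.2, 15.1 and 15.7 CPM in controls and 15.9, 15.3 and 16.3 in *Dot1l*-cKO embryos of litter 1, which overlap. In litter 2 it was at 15.4 and 15.1 CPM in controls and 17.5 and 15.6 CPM in *Dot1l*-cKO embryos, both above both controls.

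The 4 genes of end resection, which trims the break to single strands, were negative with a median of -0.15. The nuclease gene *Exo1* was at 10.4, 13.7 and 15.6 CPM in controls and 7.81, 13.9 and 11.3 CPM in *Dot1l*-cKO embryos of litter 1, and at 31.1 and 32.4 CPM in controls against 26.8 and 23.1 CPM in *Dot1l*-cKO embryos of litter 2. Its controls in litter 1 spread as widely as the groups differ, and its log2 fold change was -0.30 (standard error 0.13, adjusted p = 0.209). *Rbbp8*, which encodes the resection factor CtIP, was at -0.18 (standard error 0.07). *Rad50* and *Nbn*, subunits of the complex that senses breaks, were at -0.13 and -0.11 with standard errors of 0.06 and 0.06. All 4 were lower in both *Dot1l*-cKO embryos of litter 2 than in both controls, an order that 28.0% of all tested genes had, and all 4 overlapped in litter 1.

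The 4 genes of junction processing ranged in value from *Eme1*, the lowest, to *Slx4*. Of these edgeR called 0, beside 1.2% of all genes called lower and 1.99% called higher. *Blm*, the helicase that dissolves joined molecules, was at 30.2, 30.7 and 34.1 CPM in controls and 25.6, 26.8 and 28.4 CPM in *Dot1l*-cKO embryos of litter 1, and at 45.9 and 45.97 CPM in controls against 41.5 and 41.6 CPM in *Dot1l*-cKO embryos of litter 2. It did not overlap in either litter, and its log2 fold change of -0.20 had a standard error of 0.05 and an adjusted p of 0.0555 in edgeR. *Eme1*, the partner of the nuclease MUS81, did not overlap either, and was at 8.66, 9.66 and 9.43 CPM in controls against 4.81, 8.398 and 8.29 CPM in *Dot1l*-cKO embryos of litter 1, and at 18.1 and 17.95 CPM in controls against 17.6 and 14.5 CPM in *Dot1l*-cKO embryos of litter 2. Its log2 fold change was -0.28 (standard error 0.13, adjusted p = 0.218), or -0.16 without the first *Dot1l*-cKO embryo of litter 1. *Mus81* itself was at -0.02 (standard error 0.06) and *Slx4*, the scaffold of the nucleases, at 0.02 (standard error 0.05). *Mus81* was at 29.7, 32.4 and 28.9 CPM in controls and 27.8, 27.7 and 29.2 CPM in *Dot1l*-cKO embryos of litter 1, and at 25.1 and 26.5 CPM in controls against 25.8 and 29.5 CPM in *Dot1l*-cKO embryos of litter 2, with a negative value in one litter (-0.10) and a positive value in the other (0.10).

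The 3 damage kinases had a median of -0.24. *Atm*, which answers to double strand breaks, was at 56.4, 48.3 and 66.9 CPM in controls and 45.5, 53.99 and 50.3 CPM in *Dot1l*-cKO embryos of litter 1, and at 83.8 and 81.6 CPM in controls against 67.8 and 66.6 CPM in *Dot1l*-cKO embryos of litter 2. Its log2 fold change was -0.24 (standard error 0.08, adjusted p = 0.0886), with an overlap in litter 1. *Atr*, which answers to stalled forks, was at -0.17 (standard error 0.06, adjusted p = 0.113). *Chek1*, the checkpoint kinase that ATR activates, was at 11.98, 14.6 and 12.8 CPM in controls against 8.02, 11.2 and 11.5 CPM in *Dot1l*-cKO embryos of litter 1 and at 23.6 and 25.7 CPM in controls against 22.8 and 19.2 CPM in *Dot1l*-cKO embryos of litter 2, with no overlap in either. Its log2 fold change was -0.30 (standard error 0.10, adjusted p = 0.102, edgeR).

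**Figure D2:**
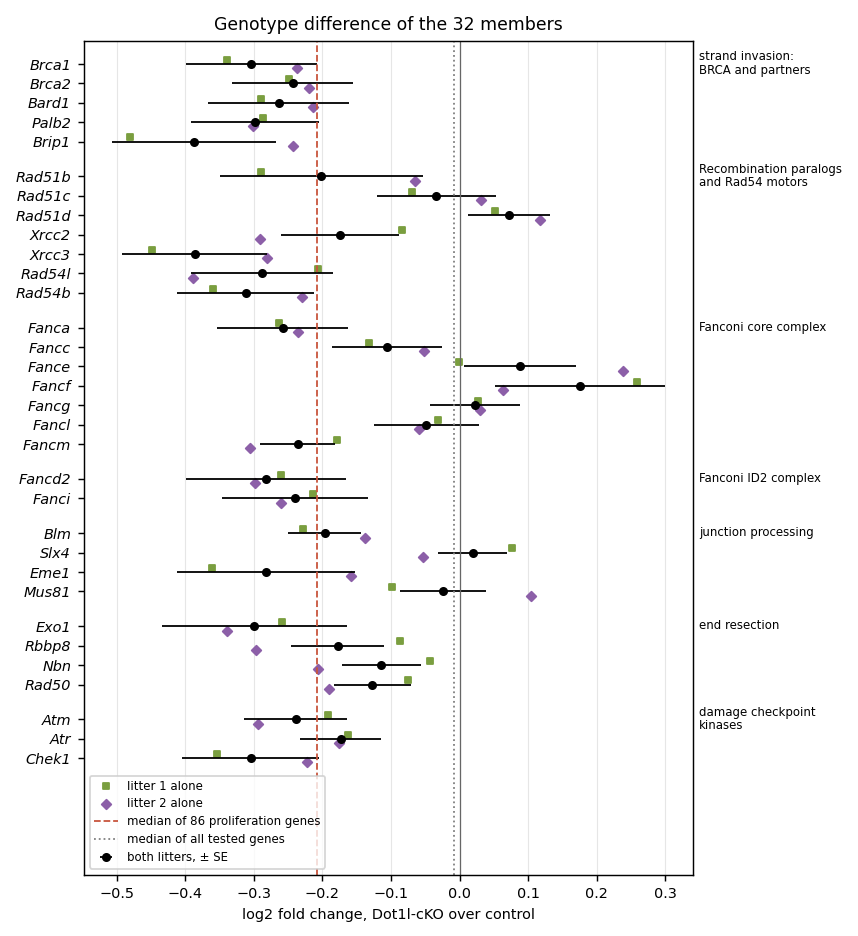
Log2 fold change of each gene, *Dot1l*-cKO over control, for both litters with its standard error (black) and for each litter alone (squares and diamonds), with medians of 86 proliferation genes and of all tested genes as lines. Points of 27 genes lie left of 0 and the members' median of -0.22 lies next to the proliferation genes' median of -0.21.

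In each litter alone most of the genes were negative. In litter 1 alone 28 of the 32 genes were negative with a median of -0.20, and edgeR called 0 of them (7 lower at an unadjusted p below 0.05), beside 0.0571% of all genes called lower and 6.66% lower at an unadjusted p below 0.05. In litter 2 alone 26 were negative with a median of -0.22, and *Atm*, *Fancm* and *Rad54l* were called lower, beside 1.16% of all genes. All *Dot1l*-cKO embryos lay below all controls of their litter for 7 genes in litter 1, beside 9.51% of all tested genes, and for 22 genes in litter 2, beside 28.0%. In both litters at once this held for 7 of the 32 genes, *Blm*, *Brip1*, *Chek1*, *Eme1*, *Fancm*, *Palb2* and *Xrcc3*, beside 4.21% of all genes, and the opposite order for 0 of them, beside 3.89%. The test of the difference between litters called 0 of the 32 genes in edgeR, with 0 at an unadjusted p below 0.05, beside 0.0106% of all genes called and 8.43% with such a p. The first *Dot1l*-cKO embryo of litter 1 held the lowest level of all 10 embryos for 23 of the 32 genes. Without it the median log2 fold change was -0.17 and 0 of the 32 genes were called, beside 0.209% of all genes called lower in that fit. Without the same embryo *Bard1* was at -0.17 and *Rad51b* at -0.11. With 1 embryo left out *Fancc* ran from -0.17 to -0.06, lowest and highest without the first and the second control of litter 2, *Fance* from 0.02 to 0.14 (without the first control of litter 2 and the second of litter 1) and *Fancf* from 0.11, without the first control of litter 1, to 0.26. *Rbbp8* was at -0.12 without the second *Dot1l*-cKO embryo of litter 2. *Fancl* ran from -0.08 to -0.01 with 1 embryo left out.

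Litter differences were larger in size than genotype differences for all of the 32 genes but *Xrcc3*, *Fance*, *Fancf* and *Rad51d*. This comparison was added after the data were examined, and it compares litters that also differ in the floxed alleles of their controls and in their markers, so its source cannot be told apart. Of 15 neural progenitor markers 12 were called higher in litter 2 (median log2 fold change 0.49) and of 15 neuron markers 8 were called lower (median -0.18), while between genotypes their medians were -0.02 and 0.05. With genotype in the model, 25 of the 32 genes were called higher in litter 2 and 0 lower (edgeR), beside 17.6% of all genes called higher and 18.7% lower. The median log2 fold change of litter 2 over litter 1 was 0.47 for the 32 genes, 0.81 for 32 S phase genes and 0.96 for 54 G2/M genes, against -0.01 for all genes. *Exo1* (1.22, standard error 0.13), *Eme1* (1.06), *Brca1* (1.06), *Fancd2* (1.06), *Fanci* (0.98), *Chek1* (0.97), *Rad54l* (0.97) and *Brip1* (0.97) were about as far apart as the cell cycle genes. The 7 genes not called were *Xrcc3* (0.27, standard error 0.11), *Rad51d* (0.03), *Fance* (-0.01), *Slx4* (-0.03), *Fancg* (-0.06), *Fancf* (-0.08) and *Mus81* (-0.13, standard error 0.06). In controls alone 21 genes were called higher in litter 2, beside 13.1% of all genes in that fit. In the fit on all embryos the median log2 fold change of litter 2 over litter 1 was 0.57 in the 12 genes with the E2F letters. It was 0.29 in the 12 without, and 0.52 in the 8 genes with no window. Between genotypes the medians of these 3 sets were -0.24, -0.19 and -0.18.

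**Figure D3:**
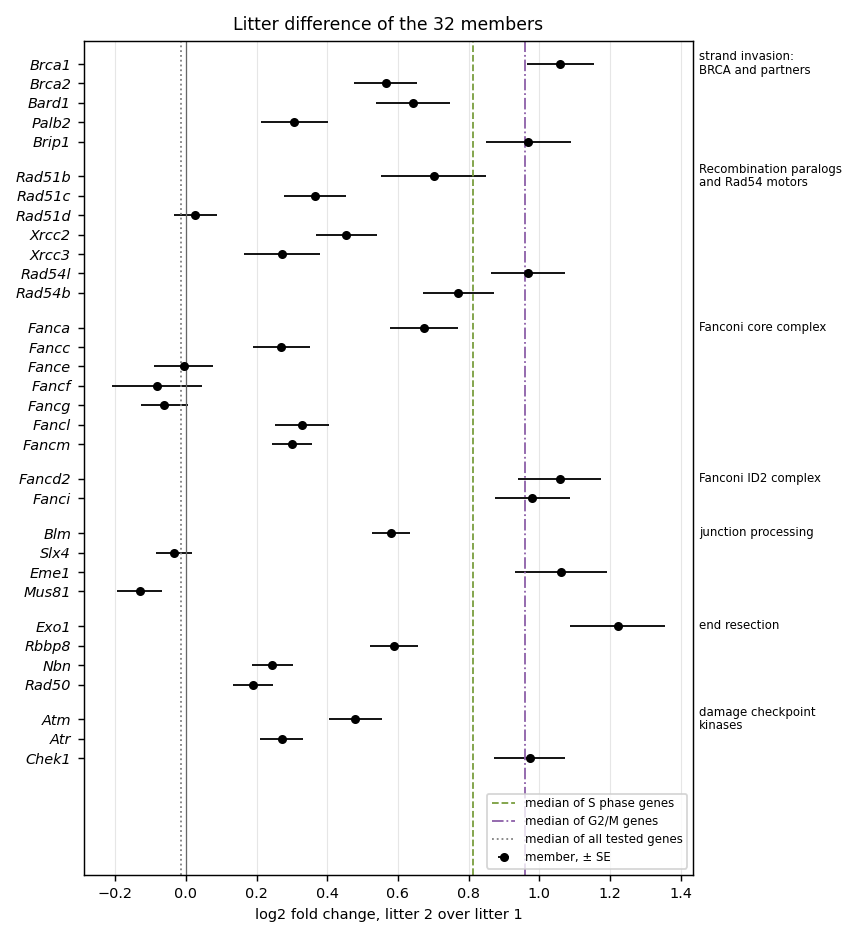
Log2 fold change of litter 2 over litter 1 for each gene with its standard error, by role, with medians of S phase, G2/M and all tested genes as lines. *Exo1* lies farthest right at 1.22, and *Fance*, *Fancf*, *Fancg*, *Rad51d*, *Slx4* and *Mus81* lie near 0.

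Proliferation was measured as the mean log2 CPM of 86 genes, 32 of S phase and 54 of G2/M phase, from which repair genes had been removed. Of the 86 genes 83 were negative between genotypes, 12 were called lower by edgeR and 0 higher, and their median log2 fold change was -0.21, next to -0.22 for the 32 repair genes. The score in *Dot1l*-cKO embryos minus that in controls was -0.22 log2 units in litter 1 and -0.19 in litter 2. The proliferation marker *Mki67* fell with a log2 fold change of -0.49 (standard error 0.11, adjusted p = 0.0377, edgeR) and the replication clamp gene *Pcna* with -0.19 (0.05, adjusted p = 0.0483). *E2f1*, where the transgene sits, was at 21.6 to 23.8 CPM in controls and 14.2 to 19.4 CPM in *Dot1l*-cKO embryos of litter 1, and at 42.0 to 46.9 and 36.5 to 38.8 CPM in litter 2 (log2 fold change -0.32, adjusted p = 0.0492). The part of the transgene in that difference was not tested.

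When each library was scaled to the 86 genes in place of TMM, so that a fold change is relative to proliferation genes, the median of the 32 genes was -0.01, with 16 negative and 16 positive. Of the 32 genes 0 were called lower by edgeR (0 at an unadjusted p below 0.05), beside 0.407% of all genes called lower and 1.1% with such a p, and *Brip1* (-0.19, standard error 0.12) and *Xrcc3* (-0.18, standard error 0.12) were the lowest. *Fance* (0.31, standard error 0.11, adjusted p = 0.0472) and *Fancf* (0.40, 0.14, adjusted p = 0.04995) were called higher relative to proliferation genes, and *Rad51d* (0.29, adjusted p = 0.0527) came next. On this scale 19.0% of all genes were called higher and the median of all genes was 0.21, against -0.01 with TMM, so the scaling raised genes in general and not the 32 alone. Both calls lie at the threshold. With 1 embryo left out the call of *Fance* was lost in 8 of 10 cases, with log2 fold changes of 0.23 to 0.37, and that of *Fancf* in 6 of 10, with 0.30 to 0.48, and the lowest value of both was without the first *Dot1l*-cKO embryo of litter 1. Both were also lost on the S phase list alone, on summed CPM and without the expression filter. With TMM the log2 fold change of *Fance* was 0.09, and it was -0.12 with the GC correction and -0.03 with *Xist* as a covariate. By role the medians were -0.09 for strand invasion, -0.06 for *Fancd2* and *Fanci*, 0.01 for the paralogs and RAD54 motors, -0.03 for the kinases, 0.06 for end resection, 0.11 for junction processing and 0.17 for the Fanconi core.

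With TMM and the score as a covariate instead, edgeR called 0 of the 32 genes for genotype, beside 0.0212% of all genes, and their median was -0.03. *Fancm* was the one gene of the 32 with an unadjusted p below 0.05 in that fit, beside 10.3% of all genes, with a log2 fold change of -0.19 (adjusted p = 0.429). Genotype and score move together in these embryos.

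In the same fit the slope on the score says how a gene varies among embryos of 1 genotype and litter, where a slope of 1 means as much as the proliferation genes do. It was positive for 29 of the 32 genes with a median of 0.57, against 0.02 for all genes, 0.89 for S phase and 1.24 for G2/M genes. *Exo1* (2.10, standard error 0.37, adjusted p = 0.0365) and *Fancd2* (1.86, standard error 0.31, adjusted p = 0.0321) were called positive in edgeR, beside 0.349% of all genes, and *Eme1* was next (2.01, standard error 0.40, adjusted p = 0.0562). Without the first *Dot1l*-cKO embryo of litter 1, which had the lowest score, the slopes of *Exo1* and *Fancd2* were 2.48 and 1.67 and neither passed. Both also failed without the second *Dot1l*-cKO embryo or the first control of litter 1, and without each embryo of litter 2 in turn. *Exo1* failed without the second control of litter 1 as well. *Chek1* (1.41), *Brip1* (1.43), *Bard1* (1.34), *Rad54l* (1.34), *Fanci* (1.24) and *Brca1* (1.07) had slopes above 1. So did *Fanca* (1.10), *Rad51b* (1.09), *Xrcc3* (1.09) and *Rad54b* (1.05). Standard errors of these slopes ran from 0.33 (*Chek1*) to 0.73 (*Rad51b*), and none was called in edgeR. *Fancm* (0.21, standard error 0.26) and *Blm* (0.27, standard error 0.25) had low slopes, although their genotype values were negative. *Mus81*, *Fancg*, *Fancc*, *Rad51c*, *Rad51d* and *Fance* lay between -0.08 and 0.07, and *Slx4* at -0.19.

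**Figure D4:**
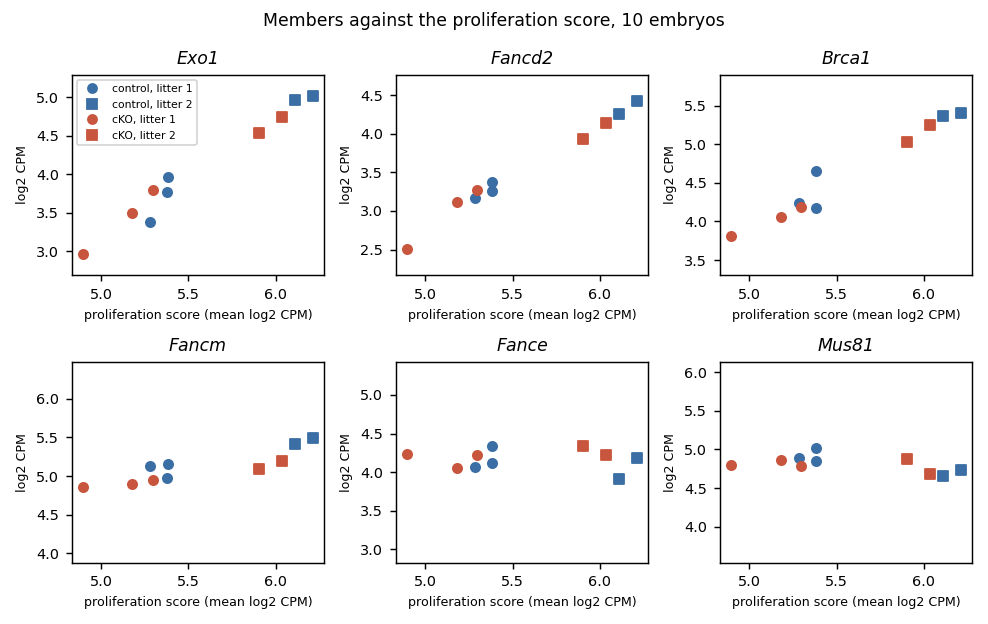
Log2 CPM of 6 genes against the proliferation score in the 10 embryos, coloured by genotype with litter 1 as circles and litter 2 as squares. *Exo1*, *Fancd2* and *Brca1* lie higher at higher scores, from the first *Dot1l*-cKO embryo of litter 1 to the controls of litter 2, while *Fance* and *Mus81* show little trend and *Fancm* lies between.

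**Figure D5:**
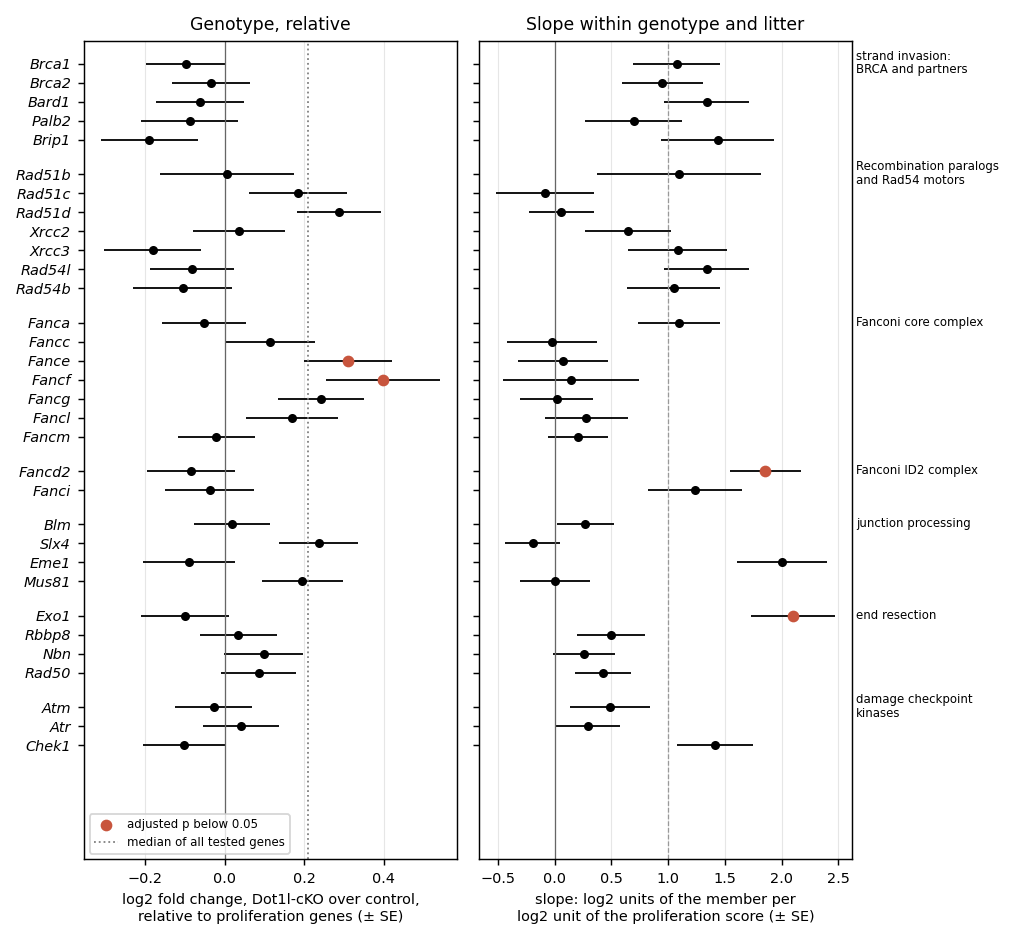
Left, log2 fold change of each gene relative to proliferation genes with its standard error, with the median of all tested genes at 0.21 as a dotted line. Right, slope on the proliferation score with its standard error, with a dashed line at 1, and red points mark an adjusted p below 0.05 (*Fance* and *Fancf* left, *Exo1* and *Fancd2* right).

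Of 61 other genes of the same pathways, 46 were negative with a median log2 fold change of -0.10, and edgeR called 2 lower and 0 higher, beside 52.1% of all genes negative, 1.2% called lower and 1.99% called higher. *Usp1*, the enzyme that removes ubiquitin from FANCD2, was at 61.5, 60.2 and 62.05 CPM in controls and 45.2, 53.5 and 55.2 CPM in *Dot1l*-cKO embryos of litter 1, and at 106 and 119 CPM in controls against 90.4 and 84.98 CPM in *Dot1l*-cKO embryos of litter 2. It fell with a log2 fold change of -0.30 (standard error 0.06, adjusted p = 0.02603). *Polq* was counted in this list, although it encodes the polymerase of end joining by short homologies. It was at 11.8, 11.7 and 13.7 CPM in controls against 7.36, 10.1 and 9.05 CPM in *Dot1l*-cKO embryos of litter 1. In litter 2 it was at 20.8 and 22.9 CPM in controls against 18.5 and 16.3 CPM in *Dot1l*-cKO embryos. *Polq* fell with -0.42 (standard error 0.09, adjusted p = 0.0313, edgeR). Neither gene overlapped between groups in either litter. Relative to proliferation genes their log2 fold changes were -0.09 and -0.22, and neither was called. *Rad51ap1*, which acts in strand pairing, was at -0.29, the break nuclease *Mre11a* at -0.15, the ubiquitin donor *Ube2t* at -0.12 and the single strand binder *Rpa2* at -0.15. Of the checkpoint, *Clspn* was at -0.33 (adjusted p = 0.0567), *Chek2* at -0.28 and *Topbp1* at -0.17. *Clspn* also differed between litters, by 1.14 (called in edgeR).

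End joining, which needs no sister chromatid, had 11 tested genes, of which 8 were negative with a median of -0.08. *Prkdc*, its kinase, was called lower (-0.23, standard error 0.06, adjusted p = 0.04698) and had a slope of -0.02 on the proliferation score. *Xrcc5*, *Xrcc6* and *Lig4* were at -0.19, -0.15 and -0.08. *Paxx*, which stabilises the Ku proteins on DNA ends and is named here after its values were seen, was called higher (0.38, standard error 0.09, adjusted p = 0.0427). It was at 18.4, 19.3 and 16.4 CPM in controls and 23.8, 23.4 and 18.6 CPM in *Dot1l*-cKO embryos of litter 1, with an overlap, and at 11.6 and 12.2 CPM in controls against 15.7 and 18.9 CPM in *Dot1l*-cKO embryos of litter 2.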

How the data were processed

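RNA-seq counts of reads per gene were made by the authors, who trimmed the reads, aligned them to mm10 with STAR and counted them with featureCounts on GENCODE genes, and deposited the raw counts without normalization. How strand was treated in counting is not given in the sources used here. Gene positions came from the GENCODE M21 annotation of GRCm38, and 54079 identifiers matched without their version. Overlaps and exon lengths use all annotated exons of a gene.

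With R 4.3.3 and edgeR 4.0.16, the quasi-likelihood test with default settings, TMM and the default expression filter by genotype was fitted on 18901 genes with the litter in the model, adjusted by Benjamini-Hochberg at 0.05. Standard errors are the size of the log2 fold change divided by the square root of F. Log2 CPM for scores used a prior count of 2. The paper's test, DESeq2 (1.42.0) with the litter, was an alternative, on 35244 genes with no filter before the fit, of which 18161 received an adjusted p. The other alternatives were no filter, a filter of 10 counts in every embryo, DESeq2 size factors, no litter, *Xist* as a covariate, other forms of the proliferation list and each embryo left out. A correction for GC content, the filter on the design, alternatives to the slope and the comparison of litters were added after the data were examined.

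The 32 genes and all lists were chosen with earlier results of these data known. All 32 were named, with *Dot1l*, *E2f1*, *Mki67*, *Pcna* and *Xist*, those of the other pathway genes that were called, and a fixed set of others. On simulated counts for 18901 genes the test recovered 46% of genes changed by 0.4 and 72% of those changed by 0.8 on the log2 scale, and 5.6% of its calls were unchanged genes. The test relative to proliferation genes called 2% of genes that moved with the list and 79% of those 0.6 beyond it. Smaller differences from the list, such as the -0.19 of *Brip1*, were not simulated, so how often it calls them was not tested. Each of 8 pairs of embryos of 1 group and litter differed beyond sampling noise, with a chi-square per gene of 9.19 to 26.7. The numbers of the embryos do not pair them, and column names gave the embryo of every column. Of the other pathway genes, 1 is counted in its list and not reported here.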

Additional observations from a re-analysis of the deposited data

How the results depend on the processing

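Of 320 log2 fold changes of the 32 genes under alternatives with all embryos or 1 litter, 312 kept their sign, and of 320 with 1 embryo left out 314 did. The median stayed between -0.24 and -0.17 with 1 embryo left out. The number of the 32 genes called was 9 with DESeq2, 10 without the expression filter, 2 with the GC correction, 0 without the litter, 0 with *Xist* as a covariate, 0 in litter 1 and 3 in litter 2, and 0 to 3 with 1 embryo left out. With DESeq2, without the filter, with the GC correction and with *Xist*, 3.53%, 2.43%, 1.37% and 0.153% of all genes in the same fit were called lower. This share was 0% without the litter, 0.0571% in litter 1, 1.16% in litter 2 and 0.0887% to 2.21% with 1 embryo left out. For the other pathway genes the number called in either direction was 7 with DESeq2, 6 lower and 1 higher. It was 9 without the filter, 0 without the litter, 0 with *Xist* and 0 to 5 with 1 embryo left out. Relative to proliferation genes the number of the 32 genes called was 0 on the S phase list and 0 without the filter. It was 1 on summed CPM (*Rad51d*) and 0 to 6 with 1 embryo left out. Slopes gave 0 to 3 calls and the covariate fit 0 with 1 embryo left out, and litters gave 22 to 26. For these alternatives no share of all genes is given. In the main fits 19.0% of all genes were called higher relative to proliferation genes. The main share was 0.349% for positive slopes and 17.6% for genes higher in litter 2. The causes of these differences between settings were not tested. Signs reversed for *Fance* with *Xist* (-0.0305), the GC correction (-0.119) and litter 1 (-0.00107), *Slx4* with the GC correction (-0.0122) and litter 2 (-0.0539), *Fancl* with the GC correction (0.00251), and *Mus81* (0.104) and *Rad51c* (0.0315) in litter 2. With 1 embryo left out, *Fancg* ran from -0.00887 to 0.0552, *Slx4* from -0.0189 to 0.0528, *Mus81* from -0.0725 to 0.0109 and *Rad51c* from -0.0945 to 0.00865. No paired analysis was possible because the embryos share a litter but no number. The genotype test was simulated at log2 changes of 0.4 and 0.8, so how often it calls smaller ones was not tested.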

Other observations

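Genes of the repair routes that act on single damaged strands lay closer to 0 in value. Of 30 genes of excision and mismatch repair, 20 were negative between genotypes with a median log2 fold change of -0.04, edgeR called 0 of them in either direction, and 4 were lower and 1 higher at an unadjusted p below 0.05, beside 10.9% and 11.3% of all genes. Between litters the same list had a median of 0.11, against 0.47 for the 32 genes, with 11 called higher and 3 lower in litter 2, beside 17.6% and 18.7% of all genes. No test compared the lists.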
